A study of Mus musculus with 8 samples.

Results

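The regulators of G protein signaling (RGS) were followed through single-cell RNA sequencing of prefrontal cortex (PFC) and striatum from wild-type (WT) and *Setd1a*+/- mice. The 10 genes were taken by symbol from the gene lists of the count matrices, which hold 31053 genes: *Rgs2*, *Rgs4*, *Rgs5*, *Rgs7*, *Rgs8*, *Rgs9*, *Rgs10*, *Rgs14*, *Rgs16*, and *Rgs20*. The WT mice were littermates of the *Setd1a*+/- mice, and all were males on a C57BL/6N background. The study made the allele in embryos of a hybrid strain and then backcrossed the founders to C57BL/6N mice. Whether DNA of the first strain remained near the allele was not tested. The labels give an age of 8 to 10 weeks, while the methods of the study give an older age. *Setd1a* encodes a histone H3 lysine 4 methyltransferase, and the mutant allele carries a CRISPR-Cas9 deletion in exon 15 that shifts the reading frame before the catalytic SET domain in every cell of the body. Each tissue has 2 WT and 2 *Setd1a*+/- libraries, and each library pools the tissue of 2 mice. The labels call the striatal samples NAc, and the series description names dorsal and ventral striatum, so "striatum" is used here.

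RGS proteins bind active G protein alpha subunits and speed up the hydrolysis of their GTP, which ends signaling from G protein-coupled receptors. The R4 subfamily (*Rgs2*, *Rgs4*, *Rgs5*, *Rgs8*, *Rgs16*) consists of small proteins with little beyond the RGS domain. The R7 subfamily (*Rgs7*, *Rgs9*) works in a complex with the beta subunit *Gnb5* and a membrane anchor such as *Rgs7bp*, and *Rgs9* of the striatum acts on dopamine and opioid receptor signaling. The R12 subfamily (*Rgs10*, *Rgs14*) and the RZ subfamily (*Rgs20*, which acts on *Gnaz*) differ from these in their other domains and in the alpha subunits they prefer. *Rgs5* is known as a marker of pericytes, the mural cells that wrap brain capillaries, and *Rgs10* is known in microglia, the immune cells of the brain.

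The 8 libraries held 15154268 to 26277553 unique molecular identifiers (UMIs, the counted RNA molecules) over all droplets. The authors annotated 8997 PFC and 14690 striatal cells, and the median annotated cell of a library had 2302.5 to 3042 UMIs. Levels are given as CPM, the UMIs of a gene per 1000000 UMIs of all cells of that type in 1 library together, with the mean ± SD over the 4 libraries of a tissue (both genotypes). Of the markers of 8 PFC cell types, 42 of 42 were counted as highest in their own type. In the 10 striatal types 46 of 49 were (*Gad2* and *Slc32a1* were highest in D1 neurons and *Pvalb* in newly formed oligodendrocytes). *Cspg4*, listed for both mural cells and oligodendrocyte progenitors, was counted as a match in both lists. It was highest in the progenitors, at 245 CPM against 67.5 CPM in cells labeled endothelial in the PFC, and 256 against 68.0 CPM in the striatum. Any 2 libraries shared at most 24 cell barcodes, at most 0.877% of the smaller library. The replicates of the PFC stood apart in a set of genes: of 10995 genes with at least 200 UMIs, 67 were at least 4-fold lower and 17 at least 4-fold higher in the replicate 1 than in the replicate 2 libraries of both genotypes, against 2 and 0 of 11424 in the striatum. No RGS member was among them. *Setd1a* was at 8.45 and 11.2 CPM in WT against 5.59 and 9.33 CPM in *Setd1a*+/- cells of the PFC, and at 13.4 and 15.2 against 9.16 and 12.5 CPM in the striatum. These reads come from the 3' end of the transcript, outside the deletion, and do not check the allele itself. The log2 FC of *Setd1a* over all cells was -0.39 ± 0.43 (SE) in the PFC and -0.38 ± 0.28 in the striatum and passed no test (edgeR, unadjusted p = 0.400 and 0.232).

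Of the members, 7 lie on chromosome 1 (GRCm38), and they include 2 neighboring pairs. *Rgs5* spans chr1:169655501-169695813 on the plus strand and *Rgs4* spans chr1:169741477-169747642 on the minus strand, with 45663 bases and 0 protein-coding genes between them. *Rgs8* (chr1:153653025-153700323) and *Rgs16* (chr1:153740349-153745468) both lie on the plus strand, 40025 bases apart, again with 0 protein-coding genes between. *Rgs2* lies at chr1:143999338-144004161, *Rgs7* at chr1:175059087-175492500, and *Rgs20* at chr1:4909576-5070285, all on the minus strand. *Rgs9* is at chr11:109225355-109298129 (minus), *Rgs10* at chr7:128373621-128418758 (minus), and *Rgs14* at chr13:55369732-55384687 (plus). The 250 bases before the RefSeq start site (GRCm38.p6) are shown for 4 members: for the neighbors *Rgs4* and *Rgs5*, which were both high in vascular cells, for *Rgs9*, the gene of the striatal projection neurons, and for *Rgs2*, whose level differed between the striatal replicates. Each runs 5' to 3' on the strand of the gene, and capitals mark matches on either strand to a TATA box (TATAAA), a GC box (GGGCGG), a cAMP response element (TGACGTCA) or an E-box (CACGTG).
Rgs4: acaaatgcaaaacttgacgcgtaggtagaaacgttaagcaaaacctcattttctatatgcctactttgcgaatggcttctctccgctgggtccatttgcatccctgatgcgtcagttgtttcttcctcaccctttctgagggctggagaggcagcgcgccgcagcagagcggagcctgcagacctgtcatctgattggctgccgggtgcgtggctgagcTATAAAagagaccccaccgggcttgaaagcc
Rgs5: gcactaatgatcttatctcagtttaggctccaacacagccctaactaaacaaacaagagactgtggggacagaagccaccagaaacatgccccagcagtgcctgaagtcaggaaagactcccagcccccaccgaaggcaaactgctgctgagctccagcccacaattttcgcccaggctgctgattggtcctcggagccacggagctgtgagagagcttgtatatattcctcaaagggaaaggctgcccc
Rgs9: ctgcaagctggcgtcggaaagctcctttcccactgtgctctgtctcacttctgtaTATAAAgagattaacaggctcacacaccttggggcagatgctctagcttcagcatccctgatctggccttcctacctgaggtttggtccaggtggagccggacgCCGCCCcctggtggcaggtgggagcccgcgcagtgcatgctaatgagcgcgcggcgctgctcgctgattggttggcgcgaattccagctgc
Rgs2: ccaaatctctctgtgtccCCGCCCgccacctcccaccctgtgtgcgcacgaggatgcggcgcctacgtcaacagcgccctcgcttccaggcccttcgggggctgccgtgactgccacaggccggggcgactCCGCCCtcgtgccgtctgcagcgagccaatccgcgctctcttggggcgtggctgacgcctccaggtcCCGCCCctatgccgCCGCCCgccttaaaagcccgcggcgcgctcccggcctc
The windows are chr1:169747643-169747892 (*Rgs4*, minus strand), chr1:169655251-169655500 (*Rgs5*, plus), chr11:109298182-109298431 (*Rgs9*, minus), and chr1:144004150-144004399 (*Rgs2*, minus). The *Rgs4* window holds 1 TATA box close to its start site end, the *Rgs5* window holds no match to the 4 motifs, the *Rgs9* window holds a TATA box near its far end and a GC box, and the *Rgs2* window holds 4 GC boxes. In 32851 windows of the same length, 12.4% held a TATA box, 32.7% a GC box, 1.55% a cAMP response element, and 6.02% an E-box. The bases just after the *Rgs9* start site were not found in a GENCODE transcript of the gene, and the window lies beyond the gene span given above. For *Rgs4*, *Rgs5*, and *Rgs2* those bases were found, so the *Rgs9* start site is the least certain of the 4. The letters describe these windows and show no binding.

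The R4 member *Rgs5* was highest in the vascular group, which the authors labeled endothelial. In PFC vascular cells it was at 2899 and 2636 CPM in WT against 3004 and 2501 CPM in *Setd1a*+/- libraries, and in striatal ones at 2057 and 2167 against 2388 and 2404 CPM. The next type, microglia, had 214 ± 166 CPM in the PFC and 134 ± 31 CPM in the striatum, 12.9 and 16.8 times lower, and the libraries did not overlap. In the PFC this microglial level ran over 147, 205, 446, and 58.5 CPM, which is 40.2 to 183% of the *Rgs5* level in empty droplets of the same library (barcodes with under 100 UMIs, 99.9 to 366 CPM). Free RNA made up 1.76 to 5.12% of the UMIs of PFC microglia by the estimate used here, and the endothelial and mural marker lists summed to 254 to 1266 and 156 to 698 CPM in them. The part of RNA from vascular cells in this level was not tested. In neurons of both tissues *Rgs5* was between 6.21 and 15.5 CPM on average.

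*Rgs4*, an R4 member that acts on Gq and Gi signaling in neurons, had 2 high sites in the PFC and a run of overlapping levels in the striatum. In PFC excitatory neurons it was at 418 and 470 CPM in WT against 649 and 593 CPM in *Setd1a*+/- libraries, and in PFC vascular cells at 344, 330, 478, and 405 CPM. These ranges overlap, and both lay above interneurons (64.7 ± 24.4 CPM), the next in order, without overlap. In the striatum vascular cells (397 ± 70 CPM), D1 medium spiny neurons (MSNs, 349 ± 36), D2 MSNs (314 ± 82), interneurons (202 ± 42), and microglia (125 ± 37) followed each other, and each overlapped with the next. Oligodendrocytes were lowest, at 9.93 ± 6.44 CPM in the PFC and 9.18 ± 5.31 CPM in the striatum.

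*Rgs2* is a regulator of Gq signaling that is induced by neuronal activity. Among the PFC types it was highest in microglia, at 335 and 178 CPM in WT against 344 and 259 CPM in *Setd1a*+/- libraries. Interneurons (64.9 ± 7.2 CPM) and excitatory neurons (64.8 ± 11.9 CPM) followed at the same level, below microglia in every library. In the striatum D2 MSNs had 361 and 223 CPM in WT against 412 and 147 CPM in *Setd1a*+/- libraries. The first value of each pair is replicate 1, and replicate 1 was above replicate 2 in both genotypes in D2 MSNs, in D1 MSNs (294, 199; 255, 124), in microglia (218, 176; 366, 120), and in interneurons (96.9, 70.7; 164, 44.3). The empty droplets of the striatum showed the same order, with 235 and 162 CPM of *Rgs2* in WT against 211 and 128 CPM in *Setd1a*+/- libraries, and the microglial level was 92.8 to 174% of that level. The summed level of 8 acute response genes (*Fos*, *Junb*, *Egr1* and others) was higher in replicate 1 of both genotypes in D2 MSNs (896, 762; 1430, 982 CPM) and interneurons (392, 360; 815, 533). In WT it was lower in replicate 1 in D1 MSNs (554, 567; 678, 528) and microglia (1302, 1722; 2258, 747), where *Rgs2* was higher. The part of free RNA and of the acute response in the *Rgs2* levels was not tested. Striatal D2 MSNs, microglia, D1 MSNs, and interneurons overlapped in their *Rgs2* level with the next in order.

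*Rgs8* and *Rgs16* were low or absent in most types. *Rgs8*, known in Purkinje cells and in the striatum, was highest in D2 (110 ± 14 CPM) and D1 MSNs (89.9 ± 3.8 CPM), and in the PFC in interneurons (42.9 ± 6.4) above excitatory neurons (24.6 ± 5.4) without overlap. In PFC newly formed oligodendrocytes it was at 0 in every library, where 3 UMIs, the upper limit of a count of 0, would be 8.93 to 26.9 CPM. *Rgs16* was highest in PFC interneurons at 22.9, 31.9, 24.4, and 46.3 CPM, overlapping with newly formed oligodendrocytes (16.4 ± 9.0), and in striatal vascular cells at 27.2, 35.5, 24.2, and 41.9 CPM, overlapping with neuroblasts (16.3 ± 13.1). It was at 0 in PFC astrocytes (3 UMIs would be 7.24 to 25.6 CPM) and in striatal oligodendrocyte progenitors (3.80 to 18.5 CPM).

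Of the R7 members, *Rgs9* was highest in the MSNs of the striatum. It was at 541 and 559 CPM in WT against 566 and 494 CPM in *Setd1a*+/- D2 MSNs, and at 474, 460, 452, and 463 CPM in D1 MSNs. D2 MSNs lay above D1 MSNs without overlap, and D1 MSNs above every other striatal type. The next striatal type, microglia, had 160 ± 34 CPM. In the PFC, *Rgs9* was highest in oligodendrocyte progenitors (46.5, 27.4, 23.7, and 34.8 CPM), which overlapped with interneurons (17.7 ± 6.5 CPM). *Rgs7*, which is widely expressed in the brain, was highest in PFC excitatory neurons (83.5 ± 10.5 CPM), followed without overlap by interneurons (59.2 ± 4.4) and astrocytes (34.6 ± 7.3). In the striatum it was level across interneurons (35.7 ± 8.0), D2 MSNs (33.0 ± 3.1), and D1 MSNs (29.5 ± 3.6), which overlapped, and lower in astrocytes (18.1 ± 6.5).

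Of the R12 members, *Rgs10* was highest in microglia, at 2282 and 1152 CPM in WT against 2147 and 1522 CPM in *Setd1a*+/- libraries of the PFC, and at 932, 747, 901, and 403 CPM in the striatum. Interneurons came next in both tissues, at 329, 327, 450, and 510 CPM in the PFC and 245, 263, 224, and 190 CPM in the striatum, below microglia and above all other types without overlap. In PFC excitatory neurons it was 20.8 ± 2.4 CPM. *Rgs14*, a scaffold known in hippocampal pyramidal neurons, was highest in PFC excitatory neurons (28.3, 28.6, 12.2, and 33.5 CPM) and in striatal D2 (82.5 ± 12.6 CPM) and D1 MSNs (66.0 ± 10.4 CPM). Elsewhere in the PFC the highest mean was 3.15 CPM, in microglia. The RZ member *Rgs20* was highest in astrocytes, at 314, 194, 273, and 293 CPM in the PFC and 179, 200, 171, and 106 CPM in the striatum. In the PFC the next types were oligodendrocyte progenitors (29.5 ± 8.2) and excitatory neurons (27.8 ± 4.6), and in the striatum D2 (87.5 ± 8.4) and D1 MSNs (80.4 ± 6.2), below astrocytes in every library.

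**Figure D1:**
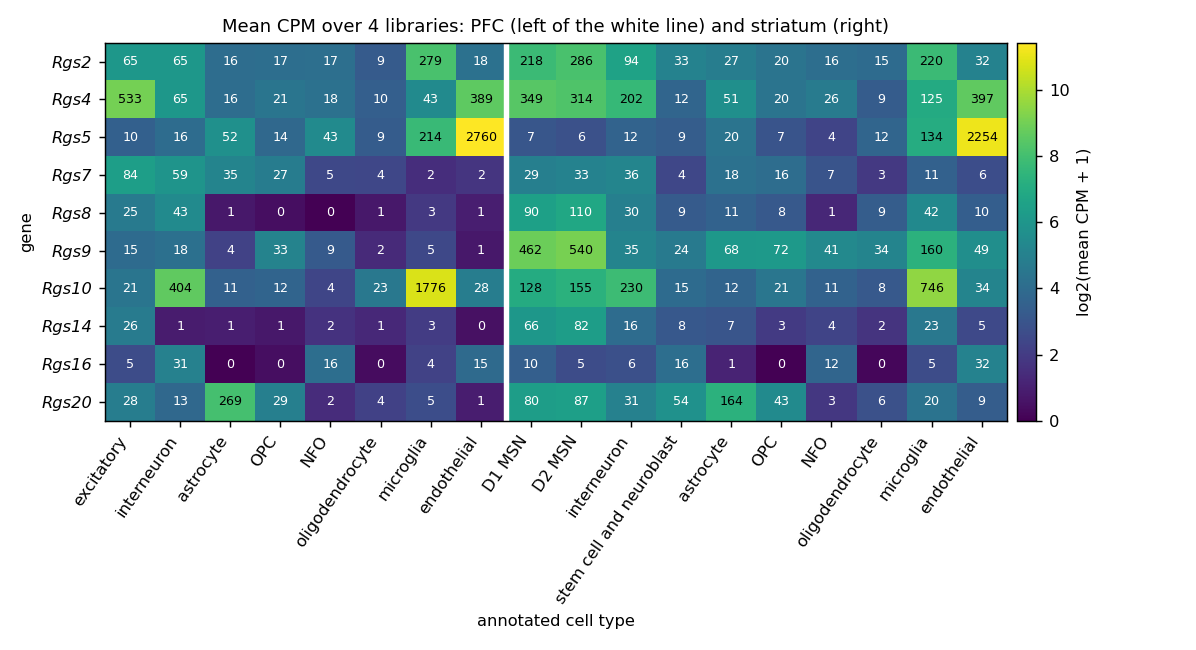
Mean level of each RGS gene (rows) in each of the 18 annotated cell types (columns, PFC and striatum), as CPM on a log2 color scale, mean of 4 libraries. *Rgs5* is brightest in the vascular cells of both tissues (2760 and 2254 CPM), *Rgs10* in microglia (1776 and 746 CPM), *Rgs9* in MSNs, *Rgs20* in astrocytes, and *Rgs4* in excitatory neurons, MSNs, and vascular cells.

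The share of cells with at least 1 UMI followed the same sites. It was 81.4% for *Rgs5* in PFC vascular cells (95% Wilson interval 79.4 to 83.3) and 84.9% in striatal ones (83.2 to 86.4), and in oligodendrocytes, which should lack the gene, 1.65% and 2.00%. Median depth was 2124 to 2756 UMIs in PFC and 2082.5 to 2592 in striatal vascular cells, and 1888 to 2190.5 and 2035 to 2124 UMIs in oligodendrocytes. With every cell thinned to 1000 UMIs the *Rgs5* shares were 69.9% and 72.6%. *Rgs10* was found in 95.0% of PFC microglia (92.7 to 96.6) and 82.3% of striatal microglia (77.3 to 86.4), 81.7% and 50.5% after thinning, against 2.48% and 1.62% of oligodendrocytes. Microglia had medians of 1980 to 2205.5 and 2188.5 to 2748.5 UMIs. The neuronal shares depend more on depth. *Rgs4* was found in 74.8% of PFC excitatory neurons (73.2 to 76.4), with medians of 5732 to 9177.5 UMIs, and in 33.6% after thinning, against 2.01% of oligodendrocytes. *Rgs9* was found in 74.4% of D2 (72.7 to 76.1) and 64.6% of D1 MSNs (63.1 to 66.1), with medians of 2740.5 to 4093 and 2657 to 3664 UMIs. After thinning the shares were 38.3% and 32.7%, against 4.95% of striatal oligodendrocytes. *Rgs20* was found in 42.1% of PFC astrocytes (38.0 to 46.2) and 34.5% of striatal ones (31.4 to 37.8), with medians of 1744 to 2129 and 1863 to 2322 UMIs. After thinning the shares were 21.8% and 17.7%, against 0.826% and 0.554% of oligodendrocytes. The intervals cover counting error only.

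Across the 18 types, the members closest in pattern to each other were *Rgs2* and *Rgs10* (Pearson r = 0.85 of log2 mean CPM) and *Rgs8* and *Rgs14* (0.80), against 0.37 for the neighbors *Rgs4* and *Rgs5*. The correlations are across types that share libraries and carry no test. Among 7494 genes with at least 50 CPM in some type, the genes most like the R4 members were *Abcc9* for *Rgs5* (r = 0.99), *Mkl2* for *Rgs4* (0.95), *Evl* for *Rgs2* (0.94), *Gabrd* for *Rgs8* (0.97), and *Dhx9* for *Rgs16* (0.85). For the others they were *Sgip1* for *Rgs7* (0.97), *Strip2*, *Pde1b*, and *Kcnip2* for *Rgs9* (0.92 each), *Ppfia4* for *Rgs10* (0.91), *Ptk2b* for *Rgs14* (0.96), and *Mt3* for *Rgs20* (0.90). The next in likeness were *Tbx3* and *Foxf2* (*Rgs5*), *Ets2* and *Dgkh* (*Rgs4*), *Coro1a* and *Limd2* (*Rgs2*), *Wscd2* and *Kcnj4* (*Rgs8*), *Arid1a* and *Nrep* (*Rgs16*), *Mapk10* and *Kidins220* (*Rgs7*), *Evl* and *Rgs2* (*Rgs10*), *Jsrp1* and *Arpp19* (*Rgs14*), and *Mir124-2hg* and *Cox10* (*Rgs20*). 

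Within the excitatory neurons of the PFC the authors named 7 subtypes, 2 superficial (SL) and 5 deep (DL), by a marker gene. *Rgs4* was highest in SL-Cux2 neurons, at 1036 ± 193 CPM (903 to 1321), and in no library of another subtype was it above 649 CPM. The other subtypes ran from DL-Etv1 (513 CPM) and SL-Myh7 (494) down to DL-Tshz2 (366), DL-Nnat (350), and DL-Foxp2 (303). *Rgs7* was high in both superficial subtypes, SL-Myh7 (139 CPM) and SL-Cux2 (121), and lowest in DL-Foxp2 (44.1). *Rgs14* was highest in SL-Myh7 neurons (62.2 CPM, 43.2 to 79.2 over libraries) against means of 9.84 to 32.8 CPM elsewhere. *Rgs2* was 115 CPM in DL-Nnat and 112 in SL-Myh7 but 28.0 in DL-Foxp2 and 22.2 in DL-Tshz2, and *Rgs8* was highest in SL-Myh7 (64.8) and DL-Tshz2 (41.0). DL-Foxp2 neurons, the lowest for *Rgs4* and *Rgs7*, had the highest mean *Rgs9* (30.0 CPM against 4.69 in DL-Etv1). *Rgs16* (16.9 CPM) and *Rgs5* (26.5 CPM) had high means in DL-Tshz2, where *Rgs10* (4.12 CPM) and *Rgs20* (7.12 CPM) were low. DL-Pou3f1 held 62 cells, 7 to 35 per library, and its *Rgs4* level of 454 CPM and *Rgs20* level of 46.6 CPM rest on few cells.

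**Figure D2:**
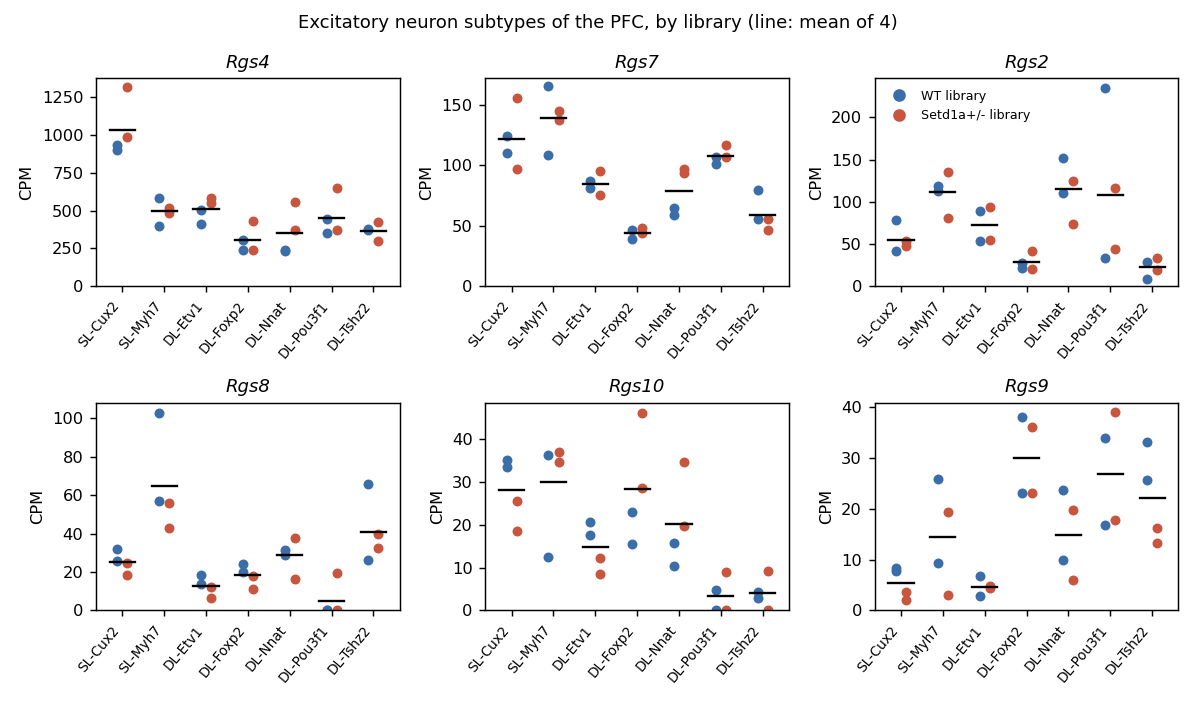
CPM of 6 RGS genes (panels) in each library of each excitatory neuron subtype of the PFC (x axis), WT in blue and *Setd1a*+/- in red, with a line at the mean of the 4 libraries. The SL-Cux2 points of *Rgs4* (903 to 1321 CPM) lie above those of all other subtypes, and *Rgs9* is highest on average in DL-Foxp2 (30.0 CPM).

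The libraries of 2 neuron classes were set side by side for each member, counting genes whose 4 values in one class all lie above the 4 in the other. These are descriptions, because the authors' clusters were drawn from the same genes. Between superficial and deep excitatory subtypes 9 members passed a level of 10 CPM, all but *Rgs16*. Of these, 4 were higher in the superficial subtypes without overlap (6.46% of 8916 genes were) and 1 was lower (7.63% of genes). The 4 were *Rgs4* (893 ± 153 against 398 ± 86 CPM), *Rgs7* (126 against 67.6), *Rgs8* (34.6 against 20.6), and *Rgs10* (29.7 against 17.6), and the lower one was *Rgs9* (8.18 against 17.5). Between PFC excitatory neurons and interneurons all 10 passed: 4 were higher in excitatory neurons (15.8% of 9229 genes were) and 3 lower (11.4%). The higher ones were *Rgs4* (533 against 64.7 CPM, 8.23-fold), *Rgs7*, *Rgs14* (25.6 against 0.827 CPM), and *Rgs20*, and the lower ones *Rgs8*, *Rgs10* (20.8 against 404 CPM), and *Rgs16*.

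In the striatum 9 members passed between D1 and D2 MSNs (*Rgs5* did not). None was higher in D1 without overlap (6.18% of 8501 genes were), and 1, *Rgs9*, was lower (462 against 540 CPM, 1.79% of genes). *Rgs2*, *Rgs8*, *Rgs10*, *Rgs14*, and *Rgs20* were lower in D1 than in D2 MSNs in 4 of 4 libraries, with overlapping ranges. Their ratios of the means lay between 0.764 and 0.919. *Rgs16* was higher in D1 MSNs in 4 of 4, also with overlapping ranges (10.1 against 5.27 CPM, ratio 1.92). The share of all genes that meet this 4 of 4 rule was not counted, so the number of members has no reference. Against striatal interneurons 9 members passed (*Rgs16* did not), and 5 were higher in MSNs (15.2% of 9122 genes were): *Rgs9* (493 against 35.2 CPM), *Rgs14* (72.6 against 15.7), *Rgs8* (98.0 against 29.9), *Rgs20* (83.2 against 31.4), and *Rgs4* (334 against 202). *Rgs10* was lower (139 against 230 CPM, 24.8% of genes). In 198 of the 821 striatal interneurons a UMI of an excitatory marker was found, and in the other 623 cells, a division chosen after seeing the data, *Rgs4* was 238 ± 43 CPM with a highest library of 296 CPM, above the lowest MSN library (273 CPM), so that *Rgs4* overlapped. The other 5 genes kept their gap in those cells. Depth differed between the classes, with medians of 2657 to 3664 UMIs in D1 MSNs, 2740.5 to 4093 in D2 MSNs, and 3799.5 to 5829 in striatal interneurons, and of 5732 to 9177.5 in PFC excitatory neurons and 4546 to 7398.5 in PFC interneurons, and its part in these differences was not tested.

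The vascular group holds mural cells beside endothelial cells, so the *Rgs5* level was split by 9 mural marker genes (*Pdgfrb*, *Vtn*, *Higd1b*, *Kcnj8*, *Abcc9*, *Cspg4*, *Anpep*, *Acta2*, *Tagln*) without using *Rgs5*. Cells with at least 2 mural genes and more mural than endothelial genes (6 markers such as *Cldn5* and *Flt1*) numbered 195 of 1562 in the PFC and 338 of 1998 in the striatum. In the PFC they had 4792 ± 515 CPM of *Rgs5* against 2449 ± 375 CPM in the other 1367 cells, and in the striatum 3310 ± 256 against 2050 ± 168 CPM in the other 1660 cells. They held 23.0 ± 8.3% of the *Rgs5* UMIs of the PFC group (16.7 to 34.9% over libraries) and 23.3 ± 5.4% of the striatal group. That share rests on the rule: the 826 PFC and 1225 striatal cells with at least 2 mural genes, whatever their endothelial genes, held 86.8 ± 1.3% and 87.8 ± 2.9% of the *Rgs5* UMIs and 60.7% and 66.3% of all UMIs of the group. *Rgs4* was higher in the 195 PFC and 338 striatal cells of the first rule than in the other vascular cells. Its levels were 798 ± 111 against 326 ± 77 CPM in the PFC and 694 ± 188 against 338 ± 42 CPM in the striatum. The next values follow this rule too. *Rgs10* was 56.7 ± 17.4 against 24.0 ± 8.0 CPM in the PFC, without overlap, while in the striatum its ranges overlapped (39.1 ± 9.9 against 33.2 ± 6.4 CPM), and striatal cells with at least 4 mural genes detected had less of it than cells with 0 in 2 of 4 libraries. The mean of *Rgs16* was lower in the mural cells, at 6.83 against 16.0 CPM in the PFC and 13.1 against 35.6 CPM in the striatum. Between cells with 0 and with at least 4 mural genes its ranges overlapped in both tissues.

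Since cells with both kinds of markers stay outside that split, the group was also binned by the number of mural genes detected, a division chosen after seeing the data. From 0 to 4 or more mural genes, *Rgs5* was 698 ± 53, 1487, 3301, 3717, and 4126 ± 351 CPM in the PFC, and 603 ± 76, 1210, 2139, 2885, and 3215 ± 252 CPM in the striatum. *Rgs4* was 34.1, 109, 332, 488, and 686 CPM in the PFC and 68.3, 134, 299, 466, and 637 CPM in the striatum over the same bins. Both genes had a higher mean in each bin than in the one before, and the bins held 553, 183, 109, 203, and 514 PFC cells and 527, 246, 188, 312, and 725 striatal cells. The mean of the endothelial gene *Cldn5* went from 2207 CPM in the first to 1478 CPM in the last PFC bin and from 2845 to 2057 CPM in the striatum, so endothelial RNA was present in the cells with most mural genes too. Its ranges in these bins overlapped in the PFC (1662 to 2700 against 1157 to 1782 CPM) and in the striatum (1092 to 3904 against 1153 to 2788 CPM). In striatal *Setd1a*+/- replicate 2 *Cldn5* rose from 1092 to 1153 CPM, and in every other library it fell. Depth differed between the bins, with medians of 1701 to 2116 UMIs per library in the first and 2423.5 to 3727 UMIs in the last PFC bin, and 1883 to 1994 and 2135.5 to 3274.5 UMIs in the striatum. The part of depth and of endothelial RNA in this gradient was not tested. *Rgs16* overlapped between the first and the last bin, at 18.1 (11.4 to 27.4) against 13.0 (9.39 to 18.8) CPM in the PFC and 40.3 (11.7 to 59.0) against 22.2 (11.0 to 32.7) CPM in the striatum.

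**Figure D3:**
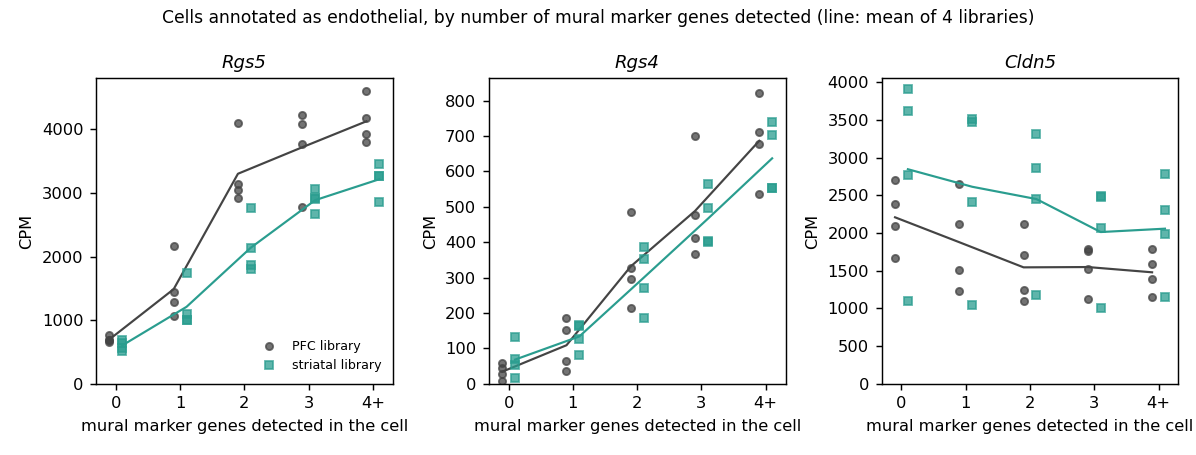
CPM of *Rgs5*, *Rgs4*, and the endothelial gene *Cldn5* (panels) in vascular cells by the number of mural marker genes detected (x axis, 0 to 4 or more), each point 1 library, PFC and striatum, with a line at the mean of 4. *Rgs5* goes from 698 to 4126 CPM and *Rgs4* from 34.1 to 686 CPM in the PFC, while *Cldn5* goes from 2207 to 1478 CPM.

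Interneurons were split by class markers (at least 2 UMIs of *Sst*, *Pvalb*, *Vip* or *Npy*), again after seeing the data. In the PFC, *Rgs10* was 693 ± 158 CPM in 54 *Vip* cells and 695 ± 129 CPM in 105 cells with *Npy* alone, but 75.3 ± 22.4 CPM in 95 *Sst* cells, and 15 *Pvalb* cells held 1 UMI. *Rgs16* was 113 ± 55 CPM in *Vip* cells and 1 UMI in all *Sst* cells, and *Rgs8* had its highest mean, 99.4 CPM, in *Vip* cells. *Rgs9* went the other way, with 39.0 ± 11.8 CPM in *Sst* cells and 1 UMI each in the *Vip* cells and the cells with *Npy* alone. In the striatum *Rgs10* was 255 ± 88 CPM in 106 *Sst* cells, 294 ± 27 CPM in 33 *Pvalb* cells, and 188 ± 17 CPM in 626 cells with none of the 4 markers, and it ran from 233 to 2384 CPM in 45 cells with *Npy* alone, of which a library held as few as 4. These 626 cells had 239 CPM of *Rgs4*, against 54.4 CPM in striatal *Sst* cells. This split did not remove the 198 striatal cells with a UMI of an excitatory marker. They had 39.0 ± 30.0 CPM of *Rgs10* and 120 ± 35 CPM of *Rgs4*. How many of them were among the 626 cells was not counted.

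Like-named cell types of the 2 tissues were then compared, which asks whether an RGS gene differs between the same cell type of the PFC and the striatum. UMIs were summed per library and type and tested with edgeR's quasi-likelihood test over all genes, with genotype as a covariate, and a gene was called at an adjusted p (FDR) under 0.05 and an FC above 2. Tissue and digestion time (longer for the striatum) cannot be told apart in this design. Of the members 9 passed the filter on low counts in at least 1 of 6 types, in 36 fits, and *Rgs14* passed in none. They gave 11 calls, 9 higher and 2 lower in the striatum, against 4.85% of 42759 fits over all genes (3.35% higher and 1.49% lower). The 4 *Rgs9* calls and the *Rgs8* call each rest on 2 to 5 PFC UMIs in all. These fits passed the filter through the striatal libraries alone, so a call in them could only be higher in the striatum. The *Rgs16* fit in interneurons passed through the PFC libraries alone, so a call in it could only be lower in the striatum. The *Rgs20* fit in interneurons and the *Rgs4* fit in microglia passed mainly through the striatal libraries. An unadjusted p under 0.05 was reached in 23 of the 36 (20.3% of all fits). A member enters more than 1 fit, and the fits share libraries, so the 11 calls are not independent.

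The interneurons gave 3 of the calls (7.83% of genes were called there). *Rgs4* was at 65.7, 55.8, 97.6, and 39.7 CPM in PFC interneurons and at 188, 164, 262, and 193 CPM in striatal ones, higher in every striatal library (log2 FC 1.63 ± 0.22 SE, FDR = 0.000111 by edgeR). *Rgs16* was at 22.9, 31.9, 24.4, and 46.3 CPM against 6.82, 6.58, 4.93, and 5.66 CPM, lower in every striatal library (-2.27 ± 0.35, FDR = 0.000367). *Rgs20* was at 8.57, 12.0, 13.3, and 19.9 against 34.8, 32.1, 28.3, and 30.2 CPM (1.28 ± 0.31, FDR = 0.0111). *Rgs10* was lower in the striatum by under 2-fold (-0.76 ± 0.18, FDR = 0.00995). The makeup of the group differed: *Vip* was 2722 CPM in PFC and 98.1 CPM in striatal interneurons and *Npy* 11458 against 3217 CPM, and the summed level of all 7 interneuron markers was 22935 to 29658 CPM in PFC libraries and 4310 to 11334 CPM in striatal ones. In addition, 198 of 821 striatal cells held a UMI of an excitatory marker (*Slc17a7*, *Neurod6* or *Neurod2*), and their summed *Gad1*, *Gad2*, and *Slc32a1* level was 35.5 to 95.5 CPM against 1528 to 1865 CPM in the other 623 cells. In these 198 cells *Rgs10* was 39.0 ± 30 CPM against 315 ± 38 CPM in the other 623 cells, and *Rgs4* was 120 ± 35 against 238 ± 43 CPM. Without such cells in either tissue, an alternative added after seeing the data, *Rgs4* (log2 FC 2.01, FDR = 2.80e-05) and *Rgs16* (-2.46) were still called, while *Rgs20* (0.98, FDR = 0.0651) and *Rgs10* (-0.31, FDR = 0.307) did not pass, and *Rgs9* was called in their place (log2 FC 1.03, FDR = 0.0397).

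In microglia, where 16.6% of genes were called, *Rgs10* was lower in the striatum: 2282, 1152, 2147, and 1522 CPM in the PFC against 932, 747, 901, and 403 CPM, with no overlap (log2 FC -1.34 ± 0.30, FDR = 0.0106 by edgeR). The summed level of the microglia markers *Cx3cr1*, *P2ry12*, *Csf1r*, and *Tmem119* was 4846 to 9177 CPM in the PFC and 2435 to 4427 CPM in the striatum and moved with *Rgs10*. Free RNA, estimated from empty droplets, made up 6.09 to 28.2% of the UMIs of striatal and 1.76 to 5.12% of PFC microglia. After it was subtracted *Rgs10* was still lower (-1.12, FDR = 0.0268), but without striatal WT replicate 2 the FDR was 0.0516. *Rgs4* was called higher in striatal microglia (16.0, 59.5, 81.0, and 14.6 against 75.6, 129, 129, and 164 CPM; 1.66 ± 0.48, FDR = 0.0291) with overlapping libraries. That call was lost after subtraction, where the difference was no smaller but its error larger (1.90 ± 0.67, FDR = 0.0891), and without any 1 of 6 libraries, all but PFC WT replicate 2 and PFC *Setd1a*+/- replicate 1 (FDR = 0.0506 to 0.122). *Rgs2* did not pass in microglia (-0.41, FDR = 0.398).

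*Rgs9* was called higher in the striatum in 4 types outside the projection neurons. In microglia it was at 3.55, 0, 10.1, and 4.88 CPM in the PFC and at 206, 159, 125, and 149 CPM in the striatum (log2 FC 5.12 ± 0.46, FDR = 8.37e-05 by edgeR). In vascular cells it was 0, 2.65, 0, and 0 against 41.7, 53.9, 25.9, and 76.5 CPM (6.45 ± 0.70, FDR = 0.000395), and since the PFC libraries held 2 UMIs in all, the ratio of the pooled levels is 97.4 with a 95% counting interval of 26.7 to 809. It was also called in astrocytes (4.22 ± 0.64, FDR = 0.000321, 3 PFC UMIs, pooled ratio 20.2 with an interval of 6.72 to 99.4) and in oligodendrocytes (4.27 ± 0.67, FDR = 0.00763), where 8.11% and 1.79% of genes were called. *Rgs9* was abundant in the free RNA of the striatum, at 405 to 652 CPM in empty droplets, against 3.26 to 15.3 CPM in the PFC. The *Rgs9* level was 22.9 to 40.7% of the empty droplet level in striatal microglia, 8.91 to 17.9% in astrocytes, 6.40 to 11.7% in vascular cells, and 3.99 to 10.6% in oligodendrocytes. After subtraction *Rgs9* no longer had enough counts to be tested in microglia, astrocytes, and oligodendrocytes, and it was still called in vascular cells (4.90, FDR = 0.0179). Markers of the projection neurons differed between the tissues in all 4 types as well. In microglia the sum of 3 D1 MSN markers (Drd1, Tac1, Pdyn) was 0 to 3.55 CPM in the PFC and 696 to 1014 CPM in the striatum, and that of 3 D2 MSN markers 1.77 to 21.6 against 692 to 1195 CPM. In vascular cells the D1 list was at 0 in every PFC library and at 76.0 to 406 CPM in the striatum, and the D2 list at 25.5 to 27.8 against 151 to 259 CPM. The striatal sums were 52.9 to 387 (D1) and 118 to 542 CPM (D2) in astrocytes and 65.9 to 283 and 70.6 to 327 CPM in oligodendrocytes, where the PFC sums reached at most 25.5 CPM. The part of RNA from MSNs in the *Rgs9* calls, that in vascular cells after subtraction included, was not tested. In oligodendrocyte progenitors, the highest PFC type, *Rgs9* did not pass (1.04, FDR = 0.135), nor did it in interneurons (0.95, FDR = 0.0501).

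Vascular cells (4.59% of genes called) gave 2 further calls. *Rgs16* was at 12.5, 11.9, 19.5, and 14.5 CPM in the PFC and 27.2, 35.5, 24.2, and 41.9 CPM in the striatum, with no overlap (log2 FC 1.11 ± 0.26, FDR = 0.0232 by edgeR). Its level was 273 to 765% of that in striatal empty droplets, and after subtraction of free RNA it was still called (1.17). The call was lost without PFC WT replicate 1 (FDR = 0.131), striatal WT replicate 1 (0.0554), striatal WT replicate 2 (0.100) or striatal *Setd1a*+/- replicate 2 (0.0534). *Rgs8* was at 0, 1.33, 0, and 2.41 against 9.06, 8.55, 7.71, and 12.7 CPM (4.07 ± 0.74, FDR = 0.00619), a pooled ratio of 19.9 with a counting interval of 5.22 to 169 from 2 PFC UMIs. This level was 9.60 to 13.3% of that in striatal empty droplets (75.5 to 96.0 CPM), it could not be tested after subtraction, and the call was lost without PFC WT replicate 1 (FDR = 0.0537). The genes with the highest vascular levels did not pass: *Rgs5* had a log2 FC of -0.27 ± 0.14 (FDR = 0.291) and *Rgs4* of 0.07 ± 0.16 (FDR = 0.839). *Rgs2* was higher in the striatum by under 2-fold (0.83 ± 0.20, FDR = 0.0289), and after subtraction it no longer passed (0.41, FDR = 0.383). Without the 195 and 338 cells with more mural than endothelial genes, which leaves many cells that hold mural genes in the group, the calls of *Rgs16* (1.18), *Rgs8* (4.80), and *Rgs9* (6.27) were kept.

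In astrocytes *Rgs20* was lower in the striatum by under 2-fold (log2 FC -0.71 ± 0.22, FDR = 0.0482 by edgeR), and after free RNA was subtracted it was -0.66 ± 0.22 (FDR = 0.0628). *Rgs7* was lower in the striatum in its 3 fits without passing, in astrocytes (-0.91, FDR = 0.102), interneurons (-0.70, FDR = 0.053), and oligodendrocyte progenitors (-0.67, FDR = 0.327).

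**Figure D4:**
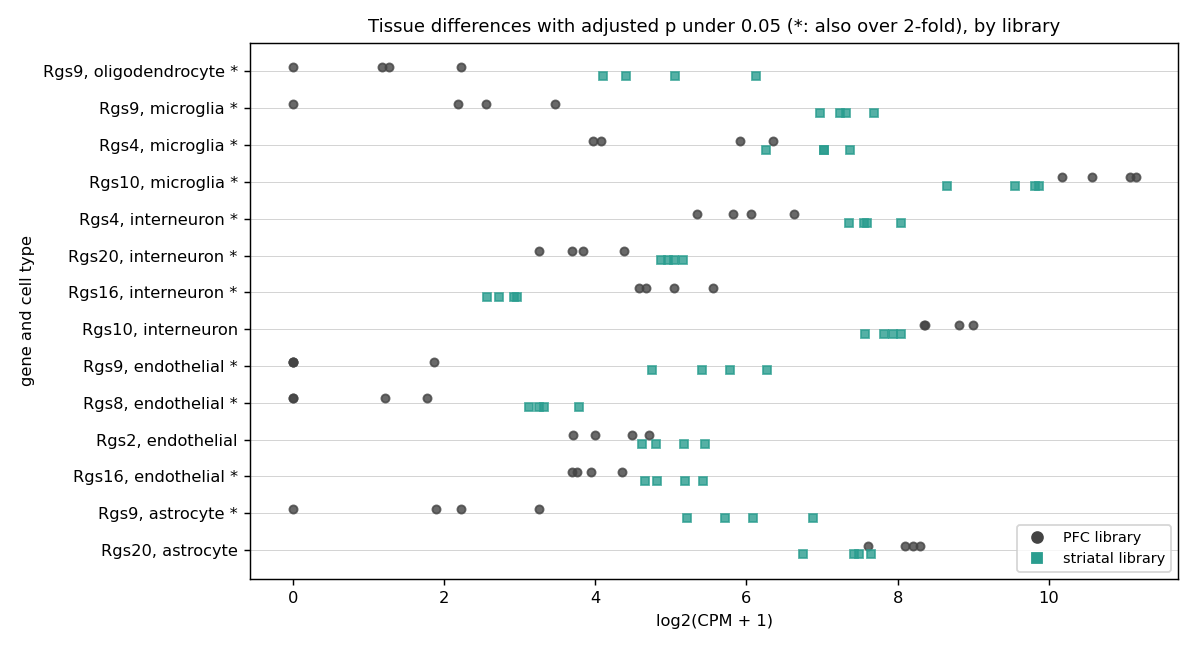
Level of RGS genes, log2(CPM + 1), in each PFC and striatal library for the 14 pairs of gene and cell type with an adjusted p under 0.05 between tissues (edgeR, n = 4 libraries per tissue), with an asterisk where the FC was also above 2. The 4 *Rgs9* rows show the widest gaps, and *Rgs10* in microglia and *Rgs16* in interneurons are the called rows in which the striatal libraries lie below the PFC libraries.

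The comparison of genotypes asks whether an RGS gene changes when 1 allele of *Setd1a* is lost. The 139 fits (34 in PFC types, 44 in excitatory subtypes, 61 in striatal types) gave 0 calls by edgeR (FDR under 0.05 with an FC over 1.5 for PFC types or over 2 for striatal types) and 0 by DESeq2. Over all genes, 0% of 51145 fits were called in PFC types, 0% of 44783 in the subtypes, and 0.00544% of 73479 in striatal types. The smallest FDR of a member was 0.919. An unadjusted p under 0.05 was reached in 0, 4, and 3 of the member fits, while 1.70%, 1.60%, and 2.62% of all fits reached it. The estimates lay within 1.5-fold in 117 of 139 fits, with a median SE of 0.396 on the log2 scale, and their median log2 FC was 0.22 in PFC types, -0.07 in the subtypes, and -0.03 in striatal types.

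In the types where a member was high, the errors were mostly smaller. *Rgs9* in D2 MSNs had a log2 FC of -0.01 ± 0.15 (SE), *Rgs5* in striatal vascular cells 0.21 ± 0.18, and *Rgs5* in PFC vascular cells 0.03 ± 0.24. The largest estimate among the highest types was *Rgs4* in PFC excitatory neurons, where both *Setd1a*+/- libraries (649 and 593 CPM) lay above both WT libraries (418 and 470 CPM), with a log2 FC of 0.49 ± 0.20 (edgeR, unadjusted p = 0.0505, FDR = 1.00). Among the subtypes, DL-Nnat neurons gave 3 of the 4 unadjusted p-values under 0.05: *Rgs4* at 240 and 232 CPM in WT against 369 and 558 CPM in *Setd1a*+/- (0.97 ± 0.28, edgeR, unadjusted p = 0.00910), *Rgs10* at 15.7 and 10.5 against 34.7 and 19.8 CPM (1.10 ± 0.45, unadjusted p = 0.0434), and *Rgs7* at 58.5 and 64.2 against 96.4 and 93.7 CPM (0.60 ± 0.24, unadjusted p = 0.0357). The fourth was *Rgs14* in DL-Etv1, at 24.3 and 23.6 against 11.0 and 13.3 CPM (-0.94 ± 0.36, unadjusted p = 0.0346). In the striatum *Rgs10* in D1 MSNs was at 145 and 159 CPM in WT against 105 and 104 CPM in *Setd1a*+/- (-0.50 ± 0.15, edgeR, unadjusted p = 0.00840). *Rgs4* in interneurons was at 188 and 164 against 262 and 193 CPM (0.42 ± 0.19, unadjusted p = 0.0471, and 0.30 with unadjusted p = 0.158 without the cells with excitatory markers). *Rgs5* in oligodendrocytes was at 6.91 and 8.46 against 14.6 and 18.9 CPM (1.03 ± 0.47, unadjusted p = 0.0441). None of these 7 passed the adjustment over all genes. Without PFC *Setd1a*+/- replicate 1 *Rgs4* in DL-Nnat passed (1.26, FDR = 0.0123), as did *Rgs5* in PFC astrocytes without PFC *Setd1a*+/- replicate 2 (2.61, FDR = 0.00203) and *Rgs10* in striatal microglia without striatal *Setd1a*+/- replicate 1 (-1.15, FDR = 0.00527). Such fits rest on 1 *Setd1a*+/- library and assume that it varies like the WT libraries.

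**Figure D5:**
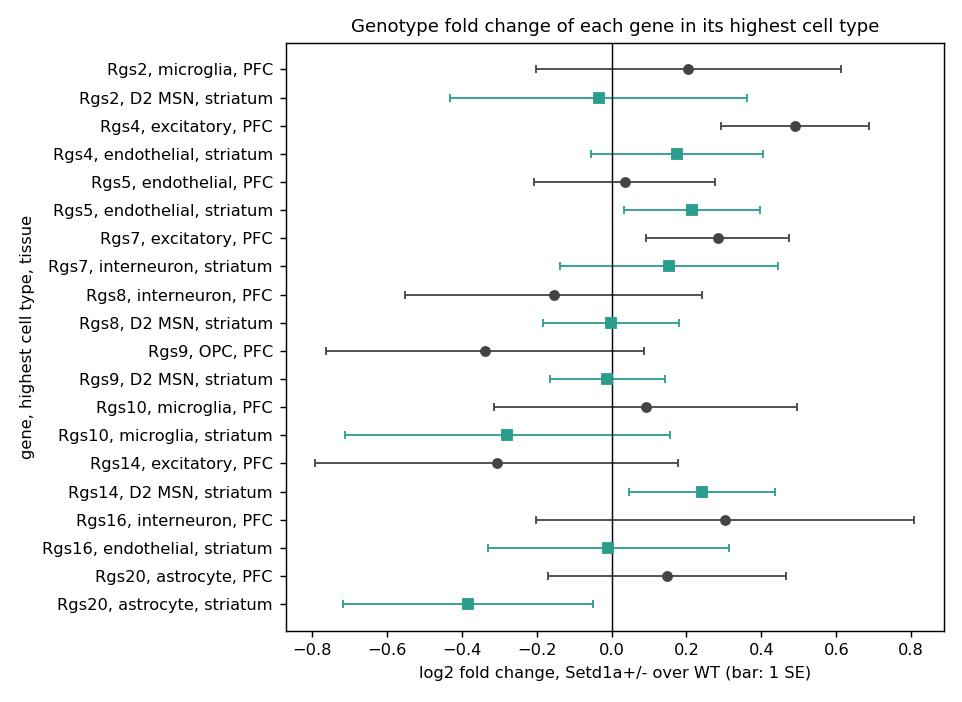
Log2 FC (*Setd1a*+/- minus WT) of each RGS gene in the cell type where it was highest in each tissue, with ± 1 SE bars from edgeR (n = 2 libraries per genotype). The estimates lie between -0.38 (*Rgs20*, striatal astrocytes) and 0.49 (*Rgs4*, PFC excitatory neurons), and 0 of them was called.

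The difference of the genotype effect between tissues was tested as an interaction in the shared types. None of 42 member fits passed (0% of 49915 fits over all genes did), and 3 had an unadjusted p under 0.05 (2.21% of all fits). These were *Rgs10* in interneurons (log2 difference, striatum minus PFC, -0.84 ± 0.30, edgeR, unadjusted p = 0.0154), *Rgs5* in interneurons (-1.97 ± 0.76, unadjusted p = 0.0210), and *Rgs5* in oligodendrocytes (3.74 ± 0.95, unadjusted p = 0.00216). Both *Rgs5* results rest on low levels. In oligodendrocytes it was at 1.27 to 22.2 CPM in the PFC and 6.91 to 18.9 CPM in the striatum. These levels were 0.377 to 19.7% and 5.32 to 18.8% of those in empty droplets. In interneurons *Rgs5* was at 5.72 to 26.6 and 9.43 to 14.8 CPM. *Rgs10* in interneurons was higher in both PFC *Setd1a*+/- libraries (450 and 510 against 329 and 327 CPM) and lower in both striatal ones (224 and 190 against 245 and 263 CPM). The makeup of the PFC interneurons moved with it: *Vip* cells, among the classes with most *Rgs10*, were 18 of 90 and 20 of 60 interneurons in the *Setd1a*+/- libraries against 6 of 48 and 10 of 100 in WT, and the part of this in the *Rgs10* levels was not tested. Within a class *Rgs10* was also higher in both *Setd1a*+/- libraries in *Sst* cells (95.0 and 94.2 against 52.7 and 59.4 CPM, from 5 to 16 UMIs) and in cells with *Npy* alone (706 and 874 against 606 and 595 CPM), and in *Vip* cells the genotypes overlapped (881 and 550 against 576 and 766 CPM).

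Other genes of the pathway were counted in the same fits. Of 11 other RGS genes 6 could be tested between tissues, with 3 calls in 20 fits: *Rgs6* was lower in striatal interneurons (36.3 against 11.4 CPM, log2 FC -1.62), and *Rgs17* was higher in striatal microglia (5.12 against 78.4 CPM, 3.53) and vascular cells (1.58 against 16.8 CPM, 3.82). Among the partners of the R7 members, 3 of 13 fits were called. *Rgs7bp*, the membrane anchor, was lower in striatal interneurons (302 against 127 CPM, -1.21), and *Gnb5* was higher in striatal microglia (18.0 against 156 CPM, 3.19) and vascular cells (23.6 against 50.4 CPM, 1.05, and 0.63 without a call after free RNA was subtracted). The alpha subunits gave 7 calls in 56 fits, 6 higher in the striatum (*Gnaz* in interneurons 1.29, *Gnai2* in astrocytes 1.10, *Gnal* in astrocytes 4.89, microglia 5.52, and vascular cells 4.54, *Gnao1* in vascular cells 1.93) and 1 lower (*Gna15* in microglia -1.05). The beta subunits gave 4 of 26, including the *Gnb5* calls and *Gnb2* in astrocytes (1.49) and microglia (1.74), and the gamma subunits 4 of 40 (*Gng3* in microglia 2.00 and vascular cells 1.68, *Gng7* in vascular cells 2.17, *Gngt2* in microglia -1.13). After free RNA was subtracted, *Gna15* (-0.80) and *Gngt2* (-0.90) in microglia and *Gng7* in vascular cells (1.53) were not called either. *Rgs17* in vascular cells and *Gnb2* in microglia had too few counts to be tested. The summed MSN markers stood at 37.4 to 52.8% of their empty droplet level in striatal microglia. In striatal vascular cells and astrocytes they stood at 6.02 to 17.0% and 6.13 to 20.8%. The part of RNA from MSNs in the calls higher in these striatal types was not tested, also where a call stayed after subtraction. Over all genes and types 4.85% of 42759 fits were called. Fits with low PFC levels passed the filter through the striatal libraries, so a call in them could only be higher in the striatum. Examples are *Gnal* (PFC means of 1.52 CPM in astrocytes, 2.11 in microglia, and 1.68 in vascular cells), the called *Rgs17* fits, and *Gnb5* in microglia. The median log2 FC of the members was 0.42, against 0.08 for the other RGS genes, 0.13 for the R7 partners, 0.02 for the alpha, 0.50 for the beta, and 0.17 for the gamma subunits, while the median over all genes was between -0.034 and -0.00021 in each type. The member median includes the *Rgs9* and *Rgs8* fits that could only be higher in the striatum. The scaling holds the medians over all genes near 0, and the lists were chosen with earlier results known. These medians therefore cannot show a shift of the family between tissues. Between genotypes edgeR called 0 genes of these lists, and 1 alpha and 2 beta subunit fits in PFC types and 1 fit of another RGS gene in striatal types had an unadjusted p under 0.05.

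By level, the R7 partner *Gnb5* was highest in D2 (557 ± 80 CPM) and D1 MSNs (381 ± 36 CPM), the types with the highest *Rgs9*. *Rgs7bp* was highest in PFC interneurons (302 CPM) and excitatory neurons (210), followed by D2 (166) and D1 MSNs (147), and *Gpr158*, a receptor that binds *Rgs7*, in PFC excitatory neurons (115), D2 (86.3), and D1 MSNs (74.3). The retinal anchors were low everywhere, *Gpr179* at most 5.81 and *Rgs9bp* at most 0.498 CPM. Among the alpha subunits, *Gnal*, which couples dopamine and adenosine receptors in MSNs, was 416 CPM in D2 and 413 in D1 MSNs, and the 3 highest were *Gnas* in striatal interneurons (794), *Gnao1* in PFC astrocytes (607), and *Gnai2* in striatal vascular cells (517). The highest of the other RGS genes were *Rgs17* in PFC interneurons (278), *Rgs12* in PFC vascular cells (235), and *Rgs3* in striatal vascular cells (106). Of the beta and gamma subunits they were *Gnb1* in striatal interneurons (789), *Gnb5* in D2 MSNs, and *Gnb4* in striatal newly formed oligodendrocytes (470), and *Gng11* in striatal oligodendrocytes (1237), *Gng5* in PFC vascular cells (841), and *Gng3* in striatal interneurons (836).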

How the data were processed

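Droplet libraries (10x Chromium) of the PFC and striatum, 2 per genotype and tissue, were counted by the authors, and the submitters' processing notes name Cell Ranger 3.0.2, Seurat 3.2.0, and mm10. The deposited matrices hold raw UMI counts per gene and barcode, empty droplets included. The authors' annotation tables, which hold other values (library, cell type, and subtype of each cell kept), were joined by library and barcode. Each had 800 or more genes detected and a mitochondrial share of 10% or less. The authors' expression tables were not used because their gene column holds row numbers. Doublets were not called here.

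UMIs were summed per library and type (at least 10 cells in each library) and tested with edgeR 4.0.16 (TMM, filterByExpr at a count of 10, Benjamini-Hochberg within a type) in R 4.3.3, with DESeq2 1.42.0 as an alternative. The other steps used Python 3.11.15, numpy 2.4.6, pandas 2.3.3, scipy 1.17.1, and matplotlib 3.10.9, and the scripts were tested on simulated data. The genotype thresholds are those in the study's results, and the tissue and interaction thresholds were set here. Free RNA was estimated from barcodes with under 100 UMIs and subtracted at the largest share that markers of other cell types allow. Positions come from GENCODE vM21 (30934 of 31053 IDs and 10 of 10 members found), and promoters from RefSeq, which matched 8 members. Libraries are the replicates. Libraries of the same number were prepared in 1 biological replicate per the study's methods, and their deviations from the genotype means correlated in all fits (r = 0.139 to 0.726 over 20 fits). The study used no block, so none is in the tests. The members and gene lists were chosen with earlier results of these data known, and all 10 members, the R7 partners, *Gnal*, *Gnao1*, the 3 highest and all called genes of each list, and the 3 most alike genes are named. A count of 0 allows up to 3 UMIs.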

Additional observations from a re-analysis of the deposited data

Results flagged for a closer look

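A check for 1 library far from the other 3 of its tissue (Dixon's test) was run on 63 groups of a member and a cell type, and it marked 2, where chance marks about 1 in 20. *Rgs5* in PFC astrocytes was 153.8 CPM in *Setd1a*+/- replicate 1, from 18 UMIs in 63 cells, against 11.0 to 31.4 CPM in the other 3 libraries. The summed level of the endothelial and mural markers in those astrocytes was 598 CPM against 119 to 261 CPM in the others, while the endothelial gene *Cldn5* was 8.54 CPM against 2.71 to 33.0 CPM. The part of vascular RNA in this value was not tested.

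*Rgs7* in PFC interneurons was 65.7 CPM in WT replicate 2, from 33 UMIs in 100 cells, against 56.3 to 57.7 CPM in the other libraries.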

How the results depend on the processing

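The 11 calls between tissues became 21 without a filter on low counts and 6 after free RNA was subtracted. Their number stayed at 11 under the other settings with all libraries and ranged from 8 to 14 with 1 library left out. An unchanged number did not always mean the same calls. Without the interneurons that held an excitatory marker UMI, the *Rgs20* call in that type was lost and an *Rgs9* call was gained. The 3 counts of genotype calls were 0 under every setting that kept all libraries and ranged from 0 to 1 with 1 library left out. The median of all genes moved by up to 0.186 log2 units in a tissue fit when library size alone was used, and the split of calls over all genes was 1528 higher and 546 lower in place of 1433 and 639. With the replicate block, no member changed its call, while over all genes it gave 26, 11, and 79 genotype calls in place of 0, 0, and 4, and 2399 tissue calls in place of 2072. Without the low-count filter these counts were 63, 28, 110, and 5538, and leaving out 1 library gave 25 to 122, 7 to 306, 67 to 402, and 1478 to 3294. The cause was not tested.

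Among genotype estimates that were not called, *Rgs5* in PFC vascular cells (0.03) was -0.010 with library size alone and -0.014 without the cells with more mural than endothelial genes, an alternative added after seeing the data. In PFC microglia *Rgs10* (0.09) was -0.14 and *Rgs2* (0.21) was -0.016 without the filter. *Rgs16* in striatal vascular cells (-0.01) was 0.059 by DESeq2 and 0.043 with the replicate block. With each library left out in turn, these log2 FCs changed sign in the PFC: *Rgs20* in astrocytes (-0.11 to 0.49), *Rgs5* in astrocytes (-0.64 to 2.61) and vascular cells (-0.051 to 0.12), *Rgs14* in excitatory neurons (-1.26 to 0.28), *Rgs16* (-0.20 to 0.77) and *Rgs8* (-0.36 to 0.076) in interneurons, *Rgs10* (-0.33 to 0.61) and *Rgs2* (-0.17 to 0.69) in microglia, and *Rgs9* in oligodendrocyte progenitors (-0.64 to 0.025). In the striatum they were *Rgs2* (-0.91 to 0.53), *Rgs8* (-0.20 to 0.19), and *Rgs9* (-0.083 to 0.060) in D2 MSNs, *Rgs16* (-0.34 to 0.45) and *Rgs4* (-0.047 to 0.43) in vascular cells, *Rgs7* in interneurons (-0.32 to 0.45), and *Rgs10* in microglia (-1.15 to 0.19). The share of *Rgs5* UMIs in mural cells (23.2%) was 23.1% and 19.8% under the planned rules and 21.5 to 24.1% with a library left out. The 23.1% came from asking for at least 3 mural genes. That rule kept the same 195 PFC cells and nearly all striatal ones (331), so it could hardly differ. The share was 87.3% in cells with at least 2 mural genes whatever their endothelial genes, a rule added after seeing the data. Of 60 levels under another scaling, 6 moved by over 1 SD. Depth limits the low members most: *Rgs14* and *Rgs16* could be fitted in 9 and 5 of the genotype fits.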
